A study of Mus musculus with 4 samples.

Results

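Pericyte marker genes were followed in laser-captured mouse brain vessels. They are the 8 genes Vtn, Rgs5, Higd1b, Ndufa4l2, Atp13a5, Tbx18, Cspg4 and Anpep, chosen by name from the 46072 genes of the deposited table. All 8 were found once each and were above 0 in all 4 libraries, where 25206 genes of the table were above 0 in any library. The libraries came from untreated wild-type (WT) mouse brain vasculature and carry the label of endothelial cells from laser capture microdissection (LCM), a method that cuts marked cells from a brain section with a laser beam. According to the title of the series, the tissue was fixed by perfusion and the capture was guided by immunolabelling. There is 1 group of 4 poly(A) RNA-seq libraries, here replicates 1 to 4, and the labels used here give neither age nor strain and do not say whether each library came from its own animal. The p-values below therefore measure only the spread between these libraries, which may be technical.

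Pericytes are mural cells that sit on the outer face of brain capillaries, embedded in the basement membrane they share with the endothelium. They are known for supporting the blood-brain barrier and for being recruited to vessels by endothelial platelet-derived growth factor. They share many genes with the smooth muscle cells of arterioles, and some of their markers are made by other cells too, such as Cspg4, which also marks oligodendrocyte precursors. The capture was aimed at endothelium, and these genes address how strongly pericyte transcripts were represented in it.

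Levels are the authors' FPKM (fragment counts divided by the transcript's length and by the mapped total of the library). Sums of FPKM ran between 448678 and 482882 per library. The number of reads behind a value is not known, and no counting interval can be set. Of 17 general endothelial genes, 14 lay above 1 FPKM in the test described below, beside 47.7% of all genes tested. The list median was 4.82 ± 1.12 FPKM (SD, n = 4). The libraries also held RNA of other brain cells: the median was 117 ± 1.33 FPKM over 10 pan-neuronal genes, 69.5 ± 4.83 FPKM over 10 astrocyte genes, 24.3 ± 5.40 FPKM over 8 choroid plexus genes and 12.9 ± 1.83 FPKM over 9 microglial genes. In such bulk samples, fewer cells of a type and less RNA per cell cannot be told apart.

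The 8 genes spread over a wide range, led by a secreted matrix protein and a signalling regulator. The vitronectin gene Vtn averaged 61.4 ± 9.07 FPKM and Rgs5 averaged 19.7 ± 2.73 FPKM (SD, n = 4 each). The mitochondrial protein genes followed, Higd1b at 7.54 ± 2.63 FPKM and Ndufa4l2 at 4.37 ± 1.18 FPKM, and then the transporter gene Atp13a5 at 2.70 ± 0.968 FPKM. The transcription factor gene Tbx18, the proteoglycan gene Cspg4 and the peptidase gene Anpep were lowest, at 0.883 ± 0.227, 0.708 ± 0.253 and 0.311 ± 0.0655 FPKM. Together the 8 genes held 99.8, 105.2, 91.2 and 94.2 FPKM in replicates 1 to 4, which is 0.021% ± 0.00182 of summed FPKM, beside 0.0579% ± 0.00576 for the 17 endothelial genes. Vtn made up 62.6% ± 5.55 of the members' sum and Rgs5 20.3% ± 2.94, so those 2 genes made up most of the sum.

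**Figure D1:**
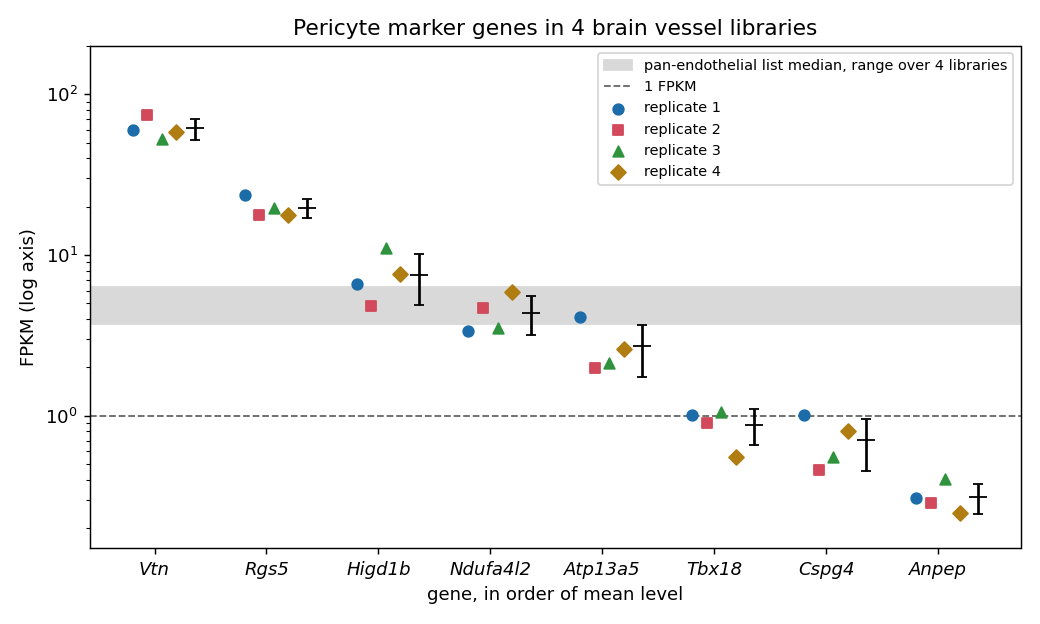
FPKM on a log axis for each of the 8 genes in each of the 4 libraries, with the mean ± SD beside the points, the range of the pan-endothelial list median as a grey band and 1 FPKM as a dashed line. Vtn and Rgs5 lie above the band in all 4 libraries, Tbx18, Cspg4 and Anpep lie below it in all 4, and Anpep is under 1 FPKM throughout.

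The sequence just upstream of a gene is described here because the 8 genes are used as markers of the same cell type and differ in level. Whether this sequence bears on the levels was not tested. RefSeq's promoter table (GRCm38.p6) held 6 of the 8, all but Higd1b and Ndufa4l2. In the 250 bases before the start, CG dinucleotides numbered 23 for Anpep, 15 for Tbx18, 12 for Cspg4, 9 for Vtn, 4 for Rgs5 and 1 for Atp13a5, against a median of 6 over 32851 promoters. The RefSeq starts used for Anpep, Cspg4 and Vtn differ from the GENCODE gene starts and lie inside the GENCODE gene spans given below. The window of Anpep lies wholly inside its span, and those of Cspg4 and Vtn lie partly inside theirs. At least 23 were held by 13.3% of all promoters, and at least 1 by 92.1%. GC content was 72.8% for Anpep and 44.8% for Atp13a5, beside a median of 52.4%. The letters CCAAT, on either strand, were found upstream of Rgs5 and Tbx18 alone among the 6, and in 33.8% of all promoters. TATAAA or TATATA, read on the gene's strand in the last 40 bases before the start, was found for Rgs5 alone and in 3.20% of all promoters. A match describes letters only.

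The upstream sequences of 3 genes are printed to show the range from a CG-poor to a CG-richer start, each being a gene whose start is the same in RefSeq and GENCODE. Each is 5′ to 3′ on the gene's strand with CG dinucleotides in capitals, at chr1:169655251-169655500 (plus strand), chr16:29378733-29378982 (minus strand) and chr9:87731261-87731510 (minus strand), build GRCm38.
Rgs5: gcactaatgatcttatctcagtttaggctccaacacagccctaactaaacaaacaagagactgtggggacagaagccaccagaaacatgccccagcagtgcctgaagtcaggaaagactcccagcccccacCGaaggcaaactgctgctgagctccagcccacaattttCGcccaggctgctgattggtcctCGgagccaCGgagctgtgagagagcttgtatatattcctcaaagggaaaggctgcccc
Atp13a5: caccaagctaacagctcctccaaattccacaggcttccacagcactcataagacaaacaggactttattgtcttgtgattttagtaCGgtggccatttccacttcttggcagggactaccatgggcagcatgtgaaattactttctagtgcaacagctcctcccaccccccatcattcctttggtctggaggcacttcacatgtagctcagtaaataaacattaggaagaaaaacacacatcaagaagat
Tbx18: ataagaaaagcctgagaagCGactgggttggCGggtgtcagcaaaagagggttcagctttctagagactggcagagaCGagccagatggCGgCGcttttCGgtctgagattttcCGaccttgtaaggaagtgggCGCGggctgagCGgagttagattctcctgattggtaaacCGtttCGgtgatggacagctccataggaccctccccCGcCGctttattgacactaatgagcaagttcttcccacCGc
In these sequences the 15 CG dinucleotides of Tbx18 are spread over the whole window, the 4 of Rgs5 fall in its part nearer the start, and Atp13a5 has 1.

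Each gene was first tested against a fixed level of 1 FPKM with limma on the log2(FPKM + 1) scale, a 2-sided test with Benjamini-Hochberg adjustment over all 25206 genes above 0 in any library. Of the 8 genes, 5 were called above 1 FPKM, 1 was called below and 2 were not called. Over all genes tested, 47.7% lay above and 40.1% below. The median difference of the 8 genes from 1 FPKM was 1.13 on that scale, beside 0.27 over all genes tested. With each gene's own spread alone, in place of limma's spread borrowed across genes, the counts were again 5 and 1, where 46.7% of all genes lay above and 37.2% below.

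A second limma test set each gene against the median of the 17 endothelial genes in the same library, on the same scale. In this test 3 of the 8 lay above the endothelial median, 4 lay below it and 1 was not called, while 29.0% of all genes lay above and 61.3% below. The median difference was -0.40 for the 8 genes and -1.26 over all genes tested. All genes share 1 endothelial median per library, and limma then treated the borrowed spread as known without error, so its p-values from this test are too small and are not printed. With each gene's own spread, an alternative added after the data were seen, 2 lay above and 3 below, where 27.0% of all genes lay above and 58.7% below. Adjusted p-values against the endothelial median below come from that fit.

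Rgs5, a regulator of G protein signalling that speeds the shutdown of Gi and Gq signals and is a widely used mural cell marker, measured 23.6, 17.9, 19.7 and 17.7 FPKM in replicates 1 to 4. Replicate 1 was highest and the other libraries lay close together. On the log2(FPKM + 1) scale Rgs5 was 3.36 ± 0.082 (SE) higher than 1 FPKM (limma, adjusted p = 7.68e-07). It exceeded the endothelial median in 4 of 4 libraries, by 1.84 ± 0.26 on the log2(FPKM + 1) scale (SD, n = 4, limma with each gene's own spread, adjusted p = 0.00186), and its mean was higher than those of 13 of the 17 endothelial genes. Rgs5 (ENSMUSG00000026678, GRCm38 chromosome 1, 169655501 to 169695813, plus strand) is a protein-coding gene whose longest annotated transcript has 5 exons and 4096 bases. No other annotated gene overlaps it, and its upstream sequence, printed above, holds the TATA-like letters.

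All 6 G protein alpha subunits on the list kept beside Rgs5 lay above 1 FPKM, beside 47.7% of all genes tested. The list median was 42.3 ± 2.27 FPKM. Gnai2, a Gi subunit made in most cells, measured 84.6 ± 5.37 FPKM, Gnai1 71.7 ± 11.2 FPKM and Gnao1, the Go subunit abundant in neurons, 57.2 ± 6.13 FPKM. The lowest were Gnai3 at 14.3 ± 1.34 FPKM and Gnaq, the Gq subunit, at 13.7 ± 1.496 FPKM. The subunits that Rgs5 can act on were thus measured, but neurons and glia make them as well.

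Vtn encodes vitronectin, an adhesive glycoprotein of plasma and matrix that pericytes make in brain and that binds integrins. It was the highest of the 8 genes in every library, with 59.8, 74.1, 52.8 and 58.7 FPKM in replicates 1 to 4. Replicate 2 stood above the other libraries and replicate 3 was lowest. Vtn was 4.95 ± 0.086 (SE) higher than 1 FPKM on the log2(FPKM + 1) scale (limma, adjusted p = 2.83e-07). It lay 3.43 ± 0.41 above the endothelial median on the log2(FPKM + 1) scale, higher in 4 of 4 libraries (SD, n = 4, limma with each gene's own spread, adjusted p = 0.00156). Its FPKM was 13.3 ± 3.89 times the endothelial median, and 16 of the 17 endothelial genes had a lower mean. Within a library it ranked between percentiles 94.2 and 95.4 of the 25206 genes. Vtn (ENSMUSG00000017344, chromosome 11, 78499091 to 78502324, plus strand) has a longest transcript of 8 exons and 1744 bases.

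Of 6 genes for vitronectin partners, 4 lay above 1 FPKM and 1 below, or 2 below with each gene's own spread. Over all genes tested, 47.7% lay above and 40.1% below, or 46.7% and 37.2% with each gene's own spread. Itgb1, the integrin beta-1 chain, measured 22.2 ± 0.595 FPKM, Itgb5, which pairs with the alpha-v chain in a vitronectin receptor, 13.2 ± 1.04 FPKM, and Itgb8, another partner of alpha-v, 7.55 ± 2.07 FPKM. Itgb3, the beta chain of the classical vitronectin receptor, measured only 0.179 ± 0.098 FPKM. Plaur, the urokinase receptor, which also binds vitronectin, measured 0.838 ± 0.0475 FPKM.

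Higd1b, a small mitochondrial membrane protein of the hypoxia-inducible domain family, measured 6.60, 4.85, 11.1 and 7.63 FPKM in replicates 1 to 4. Replicate 3 was highest at 2.29 times the level in replicate 2, the widest ratio among the 8 genes. It lay 2.05 ± 0.18 (SE) higher than 1 FPKM on the log2(FPKM + 1) scale (limma, adjusted p = 0.000156). Higd1b exceeded the endothelial median in 4 of 4 libraries, by 0.52 ± 0.34 on the log2(FPKM + 1) scale (SD, n = 4), but the call did not hold with each gene's own spread (limma, adjusted p = 0.0622). It was also lost in the borrowed-spread fit without replicate 4 (difference 0.40) and against the endothelial mean in place of the median (difference 0.026). Higd1b (ENSMUSG00000020928, chromosome 11, 102835849 to 102838040, plus strand) has the shortest of the longest transcripts here, at 735 bases and 3 exons. In RefSeq's annotation of the same build the gene runs on to 102844141 and overlaps Eftud2, a splicing factor gene, by 5670 bases. Eftud2 measured 20.7, 18.0, 22.9 and 18.8 FPKM, with its highest and lowest values in the same libraries as those of Higd1b. Its part in the Higd1b value was not tested.

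Ndufa4l2, a mitochondrial protein that is known to be induced by low oxygen and to resemble the respiratory chain subunit Ndufa4, measured 3.38, 4.67, 3.52 and 5.92 FPKM. Replicates 4 and 2 were higher than replicates 1 and 3. It lay 1.40 ± 0.14 (SE) higher than 1 FPKM on the log2(FPKM + 1) scale (limma, adjusted p = 0.000317). Against the endothelial median the difference was -0.12 ± 0.56 on the log2(FPKM + 1) scale (SD, n = 4, limma with each gene's own spread, adjusted p = 0.701), with 2 libraries above and 2 below, so no direction can be given. The gene (ENSMUSG00000040280, chromosome 10, 127514967 to 127517154, plus strand) has a longest transcript of 994 bases. Its last 32 bases overlap an exon of Shmt2 on the other strand, and Shmt2, a mitochondrial serine enzyme gene, measured 4.09, 5.66, 5.18 and 6.08 FPKM. Both genes were lowest in replicate 1 and highest in replicate 4. The strand setting of the counting is not given in the sources used here, so the Ndufa4l2 value is uncertain to that extent.

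Atp13a5 encodes a P5-type transport ATPase that is a selective marker of brain pericytes in mouse. It measured 4.10, 1.98, 2.14 and 2.59 FPKM in replicates 1 to 4, with replicate 1 apart from the other libraries. It lay 0.85 ± 0.17 (SE) higher than 1 FPKM on the log2(FPKM + 1) scale (limma, adjusted p = 0.00496). Relative to the endothelial median it lay at -0.67 ± 0.46 on the log2(FPKM + 1) scale, lower in 4 of 4 libraries (SD, n = 4), a call that was lost with each gene's own spread (limma, adjusted p = 0.0721). Atp13a5 (ENSMUSG00000048939, chromosome 16, 29231851 to 29378732, minus strand) spans 146882 bases, by far the longest locus of the 8, with 30 exons and 4598 bases in its longest transcript. An intronic pseudogene inside it, Gm15752, was listed at 0 in all 4 libraries. In RefSeq's annotation Atp13a5 also overlaps the protein-coding gene Plaat1 by 42 bases, and Plaat1 was not analysed here. The upstream sequence of Atp13a5 was the poorest in CG of the 6 examined.

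Tbx18 encodes a T-box transcription factor of the mural lineage, shared by pericytes and smooth muscle. It measured 1.01, 0.905, 1.06 and 0.556 FPKM, with replicate 4 below the other libraries. It could not be told from 1 FPKM, the difference being -0.10 ± 0.11 (SE) on the log2(FPKM + 1) scale (limma, adjusted p = 0.437). When every library was rescaled to the same sum, as TPM is, the difference was 0.52 and passed as above 1 (limma, adjusted p = 0.0366). That rescaling raised all values and moved the median of all genes by 0.73, so 1 then stands for a lower level than 1 FPKM. Tbx18 lay at -1.62 ± 0.15 from the endothelial median on the log2(FPKM + 1) scale, lower in 4 of 4 libraries (SD, n = 4, limma with each gene's own spread, adjusted p = 0.00153). Tbx18 (ENSMUSG00000032419, chromosome 9, 87702800 to 87731260, minus strand, longest transcript 4679 bases) shares 970 exon bases with D030062O11Rik on the other strand. That gene measured 0.0051 FPKM at most.

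Cspg4 encodes NG2, a large membrane proteoglycan that serves as a pericyte antibody target and is also made by oligodendrocyte precursors. It measured 1.02, 0.459, 0.551 and 0.805 FPKM in replicates 1 to 4. Replicates 1 and 4 were higher than replicates 2 and 3. It could not be told from 1 FPKM either, at -0.24 ± 0.11 (SE) on the log2(FPKM + 1) scale (limma, adjusted p = 0.0877). Without replicate 1 it passed as below 1 FPKM (difference -0.32, adjusted p = 0.0445), and after rescaling every library to the same sum the difference was 0.31 (adjusted p = 0.154), so no direction is given. Relative to the endothelial median Cspg4 lay at -1.76 ± 0.38 on the log2(FPKM + 1) scale, lower in 4 of 4 libraries (SD, n = 4, limma with each gene's own spread, adjusted p = 0.00453). Cspg4 (ENSMUSG00000032911, chromosome 9, 56865033 to 56899870, plus strand) has the longest transcript of the 8 genes, at 8121 bases. The 9 oligodendrocyte precursor genes summed to between 90.7 and 109 FPKM per library. All 9 were above 0 in all 4 libraries, as were all 17 endothelial genes. Above 1 FPKM lay 8 of the 9 (6 with each gene's own spread), beside 47.7% of all genes tested (46.7% with each gene's own spread). The largest part of the sum was Olig1, a lineage transcription factor, at 50.2 ± 7.12 FPKM. Lhfpl3 measured 17.1 ± 2.51 FPKM and Sox10 10.4 ± 1.37 FPKM, while Matn4 measured 2.04 ± 0.692 FPKM and the proteoglycan gene Vcan 0.369 ± 0.160 FPKM. The list is not exclusive to precursors, since Olig1 is a factor of the lineage and Pdgfra is also on the fibroblast list. The sum therefore does not measure precursors alone. How much of the Cspg4 signal came from oligodendrocyte precursors was not tested.

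Anpep encodes aminopeptidase N, the surface peptidase CD13 long used to stain brain pericytes. It was the lowest of the 8 genes in every library, with 0.309, 0.288, 0.402 and 0.247 FPKM in replicates 1 to 4. The values lay close together, with replicate 3 highest. Anpep was the only 1 of the 8 called below 1 FPKM, by -0.61 ± 0.049 (SE) on the log2(FPKM + 1) scale (limma, adjusted p = 0.000109). After rescaling every library to the same sum it was again called below 1 (difference -0.26, adjusted p = 0.0476). It lay at -2.13 ± 0.20 from the endothelial median on the log2(FPKM + 1) scale, lower in 4 of 4 libraries (SD, n = 4, limma with each gene's own spread, adjusted p = 0.00153), and all 17 endothelial genes had a higher mean. Anpep (ENSMUSG00000039062, chromosome 7, 79821803 to 79861059, minus strand) has a longest transcript of 21 exons and 3797 bases. Gm44974, inside it and sharing no exon bases with it, was not analysed here.

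Neighbours in the order of levels were compared within each library. The order held in 4 of 4 libraries for 5 of the 7 neighbouring pairs, each with p = 0.125 in an exact 2-sided sign-flip test (0.175 adjusted over the 7 pairs). No smaller p is possible with 4 libraries, so no pair could pass a threshold of 0.05. Vtn exceeded Rgs5 by 1.59 ± 0.31 on the log2(FPKM + 1) scale, and their FPKM ratio was 2.53, 4.15, 2.68 and 3.31 in replicates 1 to 4. Rgs5 exceeded Higd1b by 1.32 ± 0.45, Higd1b exceeded Ndufa4l2 by 0.65 ± 0.60, Atp13a5 exceeded Tbx18 by 0.95 ± 0.38 and Cspg4 exceeded Anpep by 0.37 ± 0.24 (SD, n = 4). The other 2 steps in the order were not larger than the spread. Ndufa4l2 was above Atp13a5 in 3 libraries and below it in 1 (0.55 ± 0.55, exact p = 0.25), and Tbx18 was above Cspg4 in 2 of 4 (0.14 ± 0.31, exact p = 0.5).

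The 8 genes did not rank the libraries alike. Replicate 1 was highest for Rgs5, Atp13a5 and Cspg4, replicate 3 for Higd1b, Tbx18 and Anpep, replicate 2 for Vtn and replicate 4 for Ndufa4l2. Replicate 2 gave the highest Vtn and the lowest Higd1b, Atp13a5 and Cspg4. The coefficient of variation (SD as a share of the mean) was 13.8% for Rgs5 and 14.8% for Vtn, and between 21.02% for Anpep and 35.8% for Atp13a5 among the other members. The median over 13654 genes averaging 1 FPKM or more was 16.9%, and over 6435 genes averaging 0.1 to 1 FPKM it was 72.3%. With 4 libraries of 1 group, no correlation between the members was computed.

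**Figure D2:**
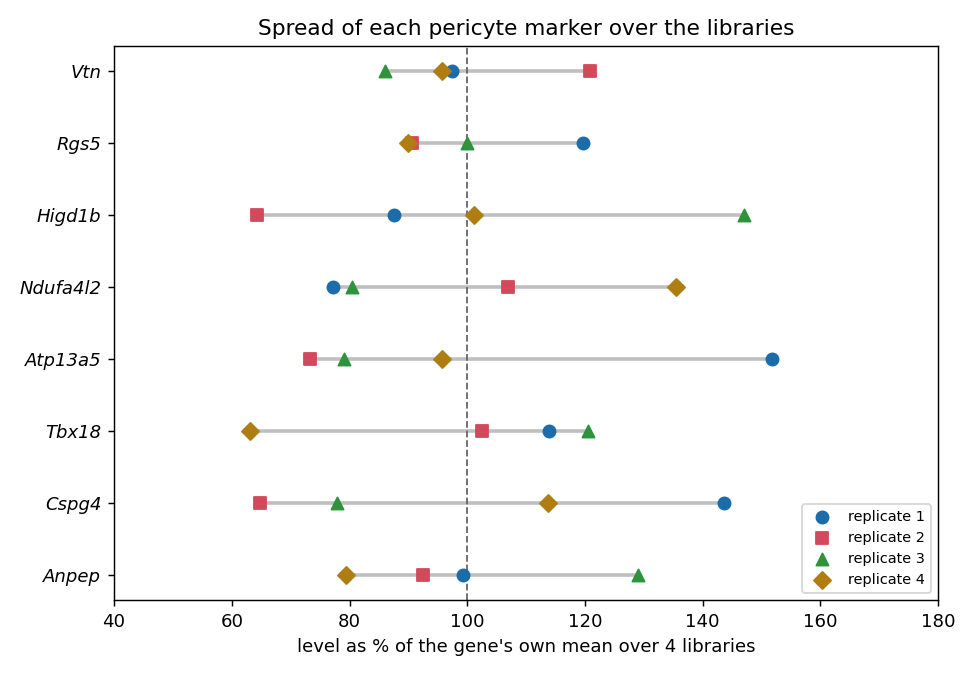
Level of each gene in each library as a percentage of that gene's own mean over the 4 libraries, genes in order of mean level from the top, with the dashed line at the mean. Vtn and Rgs5 are the tightest, and the library that is highest differs from gene to gene.

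Transcript length ran alongside the order of levels in part. The longest annotated transcripts were 1744 bases for Vtn, 735 for Higd1b and 994 for Ndufa4l2 among the 4 highest genes, with Rgs5 at 4096 bases as the exception. The 4 lowest genes had 4598 bases (Atp13a5), 4679 (Tbx18), 8121 (Cspg4) and 3797 (Anpep). The part of length in these levels was not tested. Among the 64 other vessel wall genes of the mural, smooth muscle, fibroblast and endothelial lists, the gene at the smallest Euclidean distance over the 4 libraries in log2(FPKM + 1) was Acta2, smooth muscle actin, for Vtn (distance 0.304, 55.2 ± 7.18 FPKM) and the tight junction gene Cldn5 for Rgs5 (0.279, 19.0 ± 0.698 FPKM). It was Art3 for Higd1b (0.752), the connexin gene Gja4 for Ndufa4l2 (0.515), the myosin kinase gene Mylk for Atp13a5 (0.518), Foxd1 for Tbx18 (0.287), Lmod1 for Cspg4 (0.450) and Erg for Anpep (0.307). These distances measure likeness of level only.

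The members' own gene families spanned a wider range of levels. Among 26 pairs of a member and a relative, the member was lower in all 4 libraries in 12, higher in all 4 in 9, and mixed in 5. The 12 include Cspg4 and Cspg5, which are alike in name more than in sequence. In 4 of the 9 the relative was listed at 0 throughout. The exact 2-sided sign-flip test gave 0.125 for each pair with the same order in all libraries (0.155 adjusted over the 26 pairs), and none could pass.

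Ndufa4l2 lay furthest below its relative. It averaged 4.37 FPKM against 1316 FPKM for Ndufa4, a difference of -7.96 ± 0.22 on the log2(FPKM + 1) scale (SD, n = 4), with Ndufa4 at 313 ± 62.0 times the FPKM. Higd1b, at 7.54 FPKM, lay below Higd1a at 88.5 FPKM (difference -3.43 ± 0.57) and below Higd2a at 166 FPKM (difference -4.34 ± 0.37), while Higd1c was listed at 0 in all 4 libraries. For both mitochondrial markers the broadly expressed relative was therefore higher in 4 of 4 libraries. Rgs5, at 19.7 FPKM, lay below Rgs4, a neuronal regulator at 96.1 FPKM (difference -2.23 ± 0.35), and above Rgs8 at 7.37 FPKM (1.31 ± 0.21) and Rgs16 at 3.72 FPKM (2.14 ± 0.24). Against Rgs2 at 26.2 FPKM it was lower in 3 of 4 libraries (-0.39 ± 0.34, exact p = 0.25).

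Atp13a5 lay near its closest relatives in level, with 2.70 FPKM against 3.49 FPKM for Atp13a4 (difference -0.28 ± 0.65, exact p = 0.5) and 3.63 FPKM for Atp13a3 (-0.32 ± 0.44, exact p = 0.25), neither larger than the spread. It lay below Atp13a1, an endoplasmic reticulum family member, at 6.30 FPKM and below Atp13a2, the lysosomal polyamine exporter, at 21.1 FPKM (-2.60 ± 0.43). Tbx18, at 0.883 FPKM, was the highest of its 7 T-box genes by mean. Tbx2 measured 0.476, Tbx1 0.470, Tbx3 0.369 and Tbx15 0.348 FPKM, while Tbx20 and Tbx22 were listed at 0. Tbx18 was higher than Tbx15, its near relative, in 4 of 4 libraries (0.48 ± 0.22) and higher than Tbx3 in 3 of 4. Anpep, at 0.311 FPKM, lay below Npepps at 16.2 FPKM, Rnpep at 13.5 FPKM, Trhde at 2.06 FPKM, Erap1 at 1.505 FPKM and Enpep, another pericyte-made peptidase, at 0.712 FPKM, each in 4 of 4 libraries, although the difference from Enpep (-0.33 ± 0.38) was not larger than its spread. Enpep measured 1.57 FPKM in replicate 3 and at most 0.557 FPKM in the others. Against Lnpep at 0.253 FPKM the order was mixed, with 2 libraries each way, and Lvrn was listed at 0. Cspg4, at 0.708 FPKM, lay -5.54 ± 0.38 from Cspg5, a neural proteoglycan that shares its name more than its sequence, at 78.3 FPKM.

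**Figure D3:**
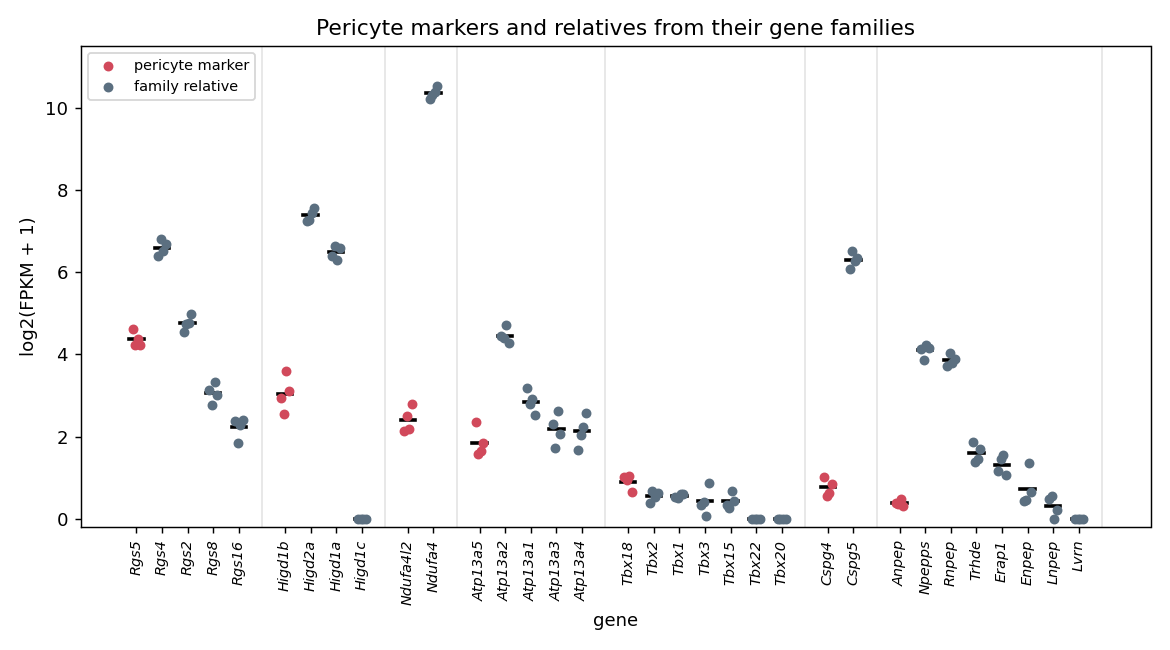
log2(FPKM + 1) of 7 pericyte markers, in red, and of relatives from their gene families, in grey, with 4 points per gene for the 4 libraries and a bar at the mean. Cspg5, beside Cspg4, is a relative by name more than by sequence. Ndufa4l2, Higd1b, Cspg4 and Anpep lie far below the highest gene beside them, whereas Tbx18 has the highest mean of its group.

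Other genes of pericytes and mural cells were measured in the same low range, none of them as high as Vtn or Rgs5. Of 24 such genes, 17 lay above 1 FPKM, 1 below it and 6 in neither direction, where 47.7% of all genes tested lay above and 40.1% below. The list median was 2.78 ± 0.337 FPKM (SD, n = 4), beside 3.54 ± 0.606 FPKM for the 8 markers. Slc19a1, a folate carrier, measured 9.02 ± 1.35 FPKM, Ifitm1, an interferon-induced membrane protein, 8.14 ± 1.07 FPKM, and Art3 7.68 ± 1.505 FPKM. The lowest were Ggt1, a glutathione-cleaving enzyme, at 0.883, 1.93, 0 and 0.218 FPKM, and Pla1a, a phospholipase, at 0.432 ± 0.211 FPKM. Named here outside the rule, after their values were seen, are the growth factor receptor gene Pdgfrb at 3.09 ± 1.04 FPKM and the channel genes Kcnj8 at 3.21 ± 0.644 FPKM and Abcc9 at 0.915 ± 0.536 FPKM. Relative to the endothelial median, 3 of the 24 lay above and 16 below, where 29.0% of all genes tested lay above and 61.3% below. With each gene's own spread 3 lay above and 12 below, where 27.0% of all genes lay above and 58.7% below.

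Smooth muscle and fibroblast genes, the other vessel wall sources of some of these transcripts, were present as well. Of all genes tested, 47.7% lay above 1 FPKM. Of 12 smooth muscle genes, 10 lay above 1 FPKM, with a summed level of 169 to 205 FPKM per library. Myl9, a myosin light chain, measured 58.1 ± 6.29 FPKM, Acta2 55.2 ± 7.18 FPKM and the actin-binding protein gene Tagln 24.8 ± 3.37 FPKM, whereas Lmod1 measured 0.655 ± 0.210 FPKM and Myocd, the smooth muscle coactivator, was listed at 0 in 3 libraries and at 0.154 FPKM in replicate 1. Of 11 fibroblast genes, 8 lay above 1 FPKM, summing to 90.2 to 118 FPKM, with Igf2 at 39.4 ± 12.5 FPKM, Dcn, decorin, at 28.1 ± 2.05 FPKM and Slc6a13, a GABA transporter, at 9.35 ± 2.50 FPKM. The lowest fibroblast genes, Lama1 and Dpt, measured 0.149 ± 0.137 FPKM and 0, 0.221, 0 and 0.268 FPKM. Which cells made the Igf2 RNA was not tested. The part of these cells in the levels of Rgs5 and Tbx18, which smooth muscle also makes, was not tested.

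**Figure D4:**
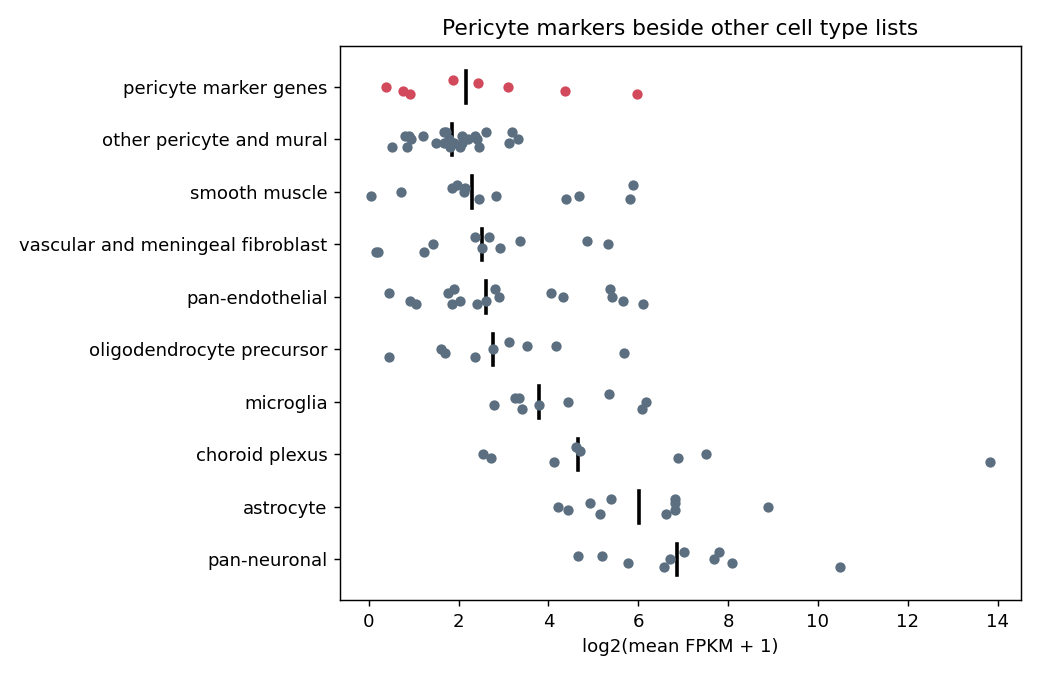
log2(mean FPKM + 1) over the 4 libraries for each gene of 10 lists, the 8 pericyte markers on top in red, with a black bar at the median of each list. The pericyte and mural lists have the lowest medians of the 10, and the astrocyte and pan-neuronal lists the highest.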

How the data were processed

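The 4 libraries are poly(A) RNA-seq of WT mouse brain vasculature, with RNA extracted by a Zymo Research kit and libraries made with the NEBNext UltraExpress kit, per the labels' protocols. The authors deposited 1 table of FPKM for 46072 genes. StringTie 2.2.1, HISAT2 2.2.1, SAMtools, bcl2fastq 2.20 and build GRCm38 appear in the submitters' processing notes. The annotation release, strand setting and filters stand as not given in the sources used here. Each column was matched to its library by the name in the labels, and 0 columns were left out. FPKM divides by transcript length and mapped total, so a few very high genes lower every other value.

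The scale was log2(FPKM + 1), whose pseudocount of 1 understates differences of low genes. limma 3.58.1 in R 4.3.3, with a mean-variance trend, gave the tests across 25206 genes at an adjusted p threshold of 0.05. Only a fit without that trend and without the shared endothelial median was checked on simulated data. Pairs of genes were compared by exact sign-flip tests over the libraries in scipy 1.17.1. Gene positions and lengths of transcripts were read from GENCODE M21, which covered 45137 of the table's genes, and promoters from RefSeq. BLAST+ 2.17.0, at 95% identity over at least 10% of a transcript, found D030062O11Rik, on the strand opposite Tbx18, as the only other gene matching a member. The members and lists were chosen with earlier results of these data known. Named genes were the 8 members, all family relatives, the 3 highest and 2 lowest of each other list used, overlapping genes and the nearest gene in level; other genes are named as such. Some genes of this rule, of lists given by their medians alone, are not described, and 1 listed gene is not reported here. The unmoderated fit was added after seeing the data. Alternatives covered pseudocount, filters, scaling, variance model, the endothelial summary and each library left out.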

Additional observations from a re-analysis of the deposited data

Results flagged for a closer look

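Chance flags about 1 in 20 groups in a check of this kind, and of the 93 genes and 2 sums examined, 3 genes had a library apart from the others by Dixon's test, none of them a pericyte marker. Olig1 measured 60.8 FPKM in replicate 2 and 46.3 to 47.3 FPKM in the other libraries. Enpep measured 1.57 FPKM in replicate 3 and 0.354 to 0.557 FPKM in the others. Myocd measured 0.154 FPKM in replicate 1 and was listed at 0 in the other libraries.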

How the results depend on the processing

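The count of members above 1 FPKM was 5 to 6 over all alternatives. The count above the endothelial median was 2 or 3 and the count below it 3 to 5. With each replicate left out in turn, 1 to 2 members lay below 1 FPKM, the second being Cspg4 without replicate 1. Rescaling every library to the same sum moved the median of all genes by 0.73 on the log2(FPKM + 1) scale. It turned the differences of Cspg4 (0.31, not called) and Tbx18 (0.52, called) from 1 positive, where 1 on the rescaled values is a lower level than 1 FPKM. Pseudocounts of 0.1 and 0.01 moved the median of all genes by -0.71 and -0.81. Leaving out replicates gave -0.35 to 0.071 for Ndufa4l2 against the endothelial median, positive without replicate 3, and the cause was not tested. Against the endothelial mean Ndufa4l2 passed as lower (-0.62) in the borrowed-spread fit, where all genes again share 1 reference per library. That call was not repeated with each gene's own spread. For Anpep against Lnpep, leaving out replicates gave -0.055 to 0.17, negative without replicate 3, where Lnpep was listed at 0. No other member changed direction or call beyond those given beside the results above. No paired analysis was possible because there is 1 group. Depth is unknown, so precision rests on 4 libraries.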
